A study of Mus musculus with 3 samples.

Results

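The SLAM family comprises 9 genes of cell surface receptors of the immunoglobulin superfamily, Slamf1, Cd48, Cd244, Ly9, Cd84, Slamf6, Slamf7, Slamf8 and Slamf9. They were taken by name from the 19938 mouse genes that the arrays measured through probe sets assigned to 1 gene, and all 9 were found, each through 1 probe set. Cd244 is written Cd244a in the platform annotation. The cells came from bone marrow of wild-type C57Bl/6 mice aged 6 to 10 weeks and were sorted as c-Kit+, Sca-1+ and CD150+ and as lineage-, CD48- and CD41-, a population called KLS SLAM that is enriched for haematopoietic stem cells. Their RNA was purified, amplified and hybridised to 3 arrays, called arrays 1, 2 and 3 after the replicate numbers. All carry the same labels, so the family was described in 1 group, and only 2 of its genes, Slamf1 (CD150) and Cd48, encode proteins of the sort. The labels do not say whether the arrays came from separate mice, so the spread between them may be technical.

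SLAM receptors pair with receptors on neighbouring cells or with themselves. Most carry tyrosine motifs in their tails that recruit the small adaptor SAP, its relatives or inhibitory phosphatases. SAP in turn recruits the Src family kinase Fyn. In mouse marrow, CD150 together with absence of CD48 and CD244 is used to separate stem cells from multipotent and restricted progenitors. The sort was made on protein at the cell surface, while the arrays measured RNA.

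The 9 genes fall into 2 runs on mouse chromosome 1 in the RefSeq gene order, with 7 of them from Cd244 to Slamf6 in the first run and Slamf9 and Slamf8 in the second. RefSeq promoter windows, of 300 bases around a gene start on build GRCm38.p6, were at hand for 8 of the 9 genes. Ly9 had none. The windows of Slamf1, Cd48 and Cd84 are shown because the first pair are the genes of the sort and Cd84 had the widest margin over background described below. Capitals mark, on either strand, the letters GATAA of sites for GATA factors, the letters GGAAG of sites for ETS factors and the letters TGTGGT of sites for RUNX factors.
Slamf1, chr1:171766882-171767181, plus strand: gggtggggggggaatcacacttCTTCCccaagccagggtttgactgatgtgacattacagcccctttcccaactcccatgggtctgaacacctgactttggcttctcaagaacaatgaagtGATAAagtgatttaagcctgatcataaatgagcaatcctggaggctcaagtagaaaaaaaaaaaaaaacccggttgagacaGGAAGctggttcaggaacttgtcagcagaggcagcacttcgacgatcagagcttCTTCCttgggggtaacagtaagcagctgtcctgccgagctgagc
Cd48, chr1:171681742-171682041, plus strand: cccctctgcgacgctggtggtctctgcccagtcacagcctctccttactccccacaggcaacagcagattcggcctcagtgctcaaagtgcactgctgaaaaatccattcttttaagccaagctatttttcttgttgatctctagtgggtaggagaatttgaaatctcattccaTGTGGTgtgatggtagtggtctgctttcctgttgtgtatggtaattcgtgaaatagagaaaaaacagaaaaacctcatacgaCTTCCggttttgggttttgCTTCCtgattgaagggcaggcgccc
Cd84, chr1:171839447-171839746, plus strand: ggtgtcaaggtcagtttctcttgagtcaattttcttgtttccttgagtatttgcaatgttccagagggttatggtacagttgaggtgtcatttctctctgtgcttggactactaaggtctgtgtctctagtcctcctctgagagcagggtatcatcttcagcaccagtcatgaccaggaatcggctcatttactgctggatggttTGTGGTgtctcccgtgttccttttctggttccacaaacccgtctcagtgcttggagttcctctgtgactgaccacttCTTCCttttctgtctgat
Counted from 1 at the 5′ end of the window, Slamf1 held GATAA at bases 122 to 126, the only GATAA match among the 8 windows, while 25.4% of all 32851 promoter windows held it. The letters GGAAG occurred on either strand 3 times in the Slamf1 window, 2 times in that of Cd48 and 1 time in that of Cd84. The windows of Slamf7, Slamf8 and Slamf9 also held a match and those of Cd244 and Slamf6 did not, while 71.4% of all windows held at least 1. TGTGGT stood at bases 175 to 180 for Cd48 and at bases 206 to 211 for Cd84, the 2 windows of the family with a match, against 16.8% of all windows. CACGTG, an E-box that overlaps none of the other motifs searched, was in the windows of Cd244, Slamf8 and Slamf9 and in 7.15% of all windows. The windows held between 1 CpG (Slamf6) and 7 CpGs (Cd48), beside a median of 7 over all windows. These are matches of letters and not binding sites.

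The deposited values have no detection calls, so each gene was set against genes that marrow cells should not use. The background limit of an array was the 95th percentile of 1231 olfactory, vomeronasal and taste receptor genes on it, which was 6.29, 5.98 and 5.77 on the log2 scale on arrays 1, 2 and 3. Each probe set has its own affinity, so a gene is compared with the limit and with itself on other arrays, and no order of amounts between genes is read from the values. Levels are given as log2 of the intensity, and margins as the log2 level minus the limit of the same array. Over all genes the arrays correlated with Pearson's r between 0.940 and 0.951 across genes, and their median intensities were 60.4, 58.0 and 56.7.

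Of the 9 SLAM genes, 3 were above the limit on all 3 arrays, namely Slamf1, Ly9 and Cd84, and the same held for 36.8% of all genes. Another pair, Cd48 and Cd244, exceeded it on array 3 alone. The remaining 4, Slamf6, Slamf7, Slamf8 and Slamf9, were below it on every array, as were 8378 of all 19938 genes. The share of the family above the limit was thus close to that of all genes, and the median margin was -0.42 over the 9 genes and -0.05 over all genes.

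**Figure D1:**
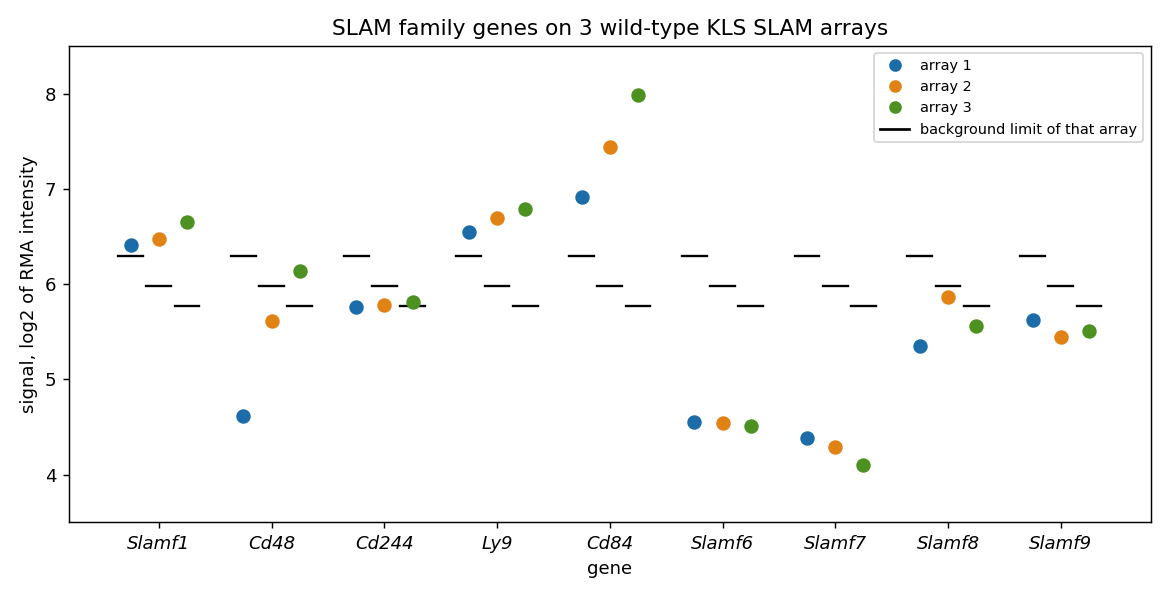
Log2 signal of each SLAM family gene on arrays 1, 2 and 3 (coloured points, 1 array each), with the background limit of the same array as a black bar. Slamf1, Ly9 and Cd84 lie above the bars on all 3 arrays, Cd48 and Cd244 on array 3 alone, and the other 4 genes below them.

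In the test against the limit, 2 members were higher (32.3% of all genes were), 4 were lower (36.9% of all genes were) and 3 did not pass (limma on margins over all genes, two-sided, Benjamini-Hochberg adjusted p under 0.05). The margins of all genes share the change of the limit between arrays, and limma then gave nearly every gene the spread of the common trend, with infinite prior degrees of freedom, in place of its own. The SE given with a mean margin comes from this fit and does not measure the spread of the gene's own 3 arrays. A fit with 1 limit for all arrays, the mean of 6.01, used 4.34 prior degrees of freedom and kept more of each gene's own spread. It was added after the data were seen. By it 3 members were higher (35.8% of all genes) and 4 lower (40.6%), and it changed the call of Slamf1, Cd48 and Slamf8, for which both values are given.

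**Figure D2:**
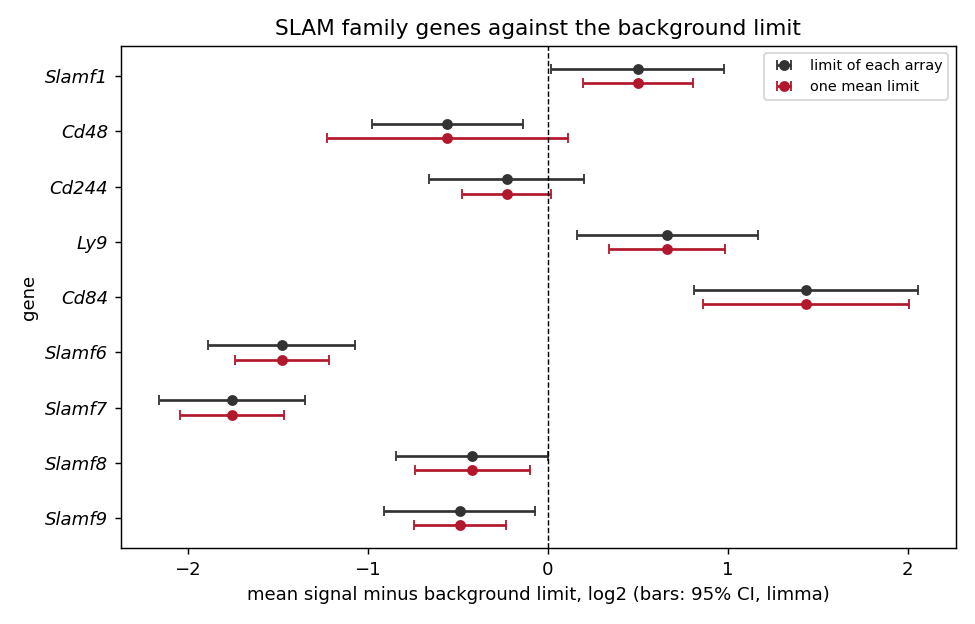
Mean signal minus the background limit for each SLAM family gene, in log2, with 95% confidence intervals from limma over 3 arrays, using the limit of each array (dark) or 1 mean limit (red). The intervals of Cd84, Ly9 and Slamf1 lie above 0 and those of Slamf6, Slamf7 and Slamf9 below 0 in both fits. Those of Cd48 and Slamf8 reach 0 in one of them and those of Cd244 in both. The intervals are not adjusted for the number of genes, and Slamf1 did not pass with the limit of each array after adjustment.

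Slamf1 encodes CD150, the receptor that the sort selected, which binds itself on neighbouring cells. Its intensity was 85.0 on array 1, 89.1 on array 2 and 100.6 on array 3, or 6.41, 6.48 and 6.65 on the log2 scale. The arrays lay close together, and all were above their limits, by 0.11, 0.50 and 0.89 log2. Of the 1231 receptor genes, 48, 17 and 7 were as bright or brighter on arrays 1, 2 and 3. The mean margin of 0.50 ± 0.25 (SE, n = 3) did not pass the limma test with the limit of each array (adjusted p = 0.0586) and passed with 1 mean limit (adjusted p = 0.0107). With the limits at the 99th percentile of the receptor genes, Slamf1 was above on 1 array, at a mean margin of -0.23. On this stricter limit the RNA of the selected marker stood within the background range on the other 2 arrays.

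Cd48 encodes the GPI-anchored ligand of CD244 and of CD2, which the sort excluded at the protein level. Its intensity was 24.5, 49.1 and 70.3 on arrays 1, 2 and 3, with log2 levels of 4.61, 5.62 and 6.14. Array 1 was well below its limit with a margin of -1.68, array 2 was closer with a margin of -0.36, and array 3 was above it with a margin of 0.37. The receptor genes as bright or brighter numbered 524, 124 and 22. The mean margin was -0.56 ± 0.21 (SE, n = 3) with a limma adjusted p of 0.0149 with the limit of each array, and the call was lost with 1 mean limit (adjusted p = 0.107). That SE reflects the common trend and not the wide spread of the Cd48 arrays, and it was 0.27 with 1 mean limit. Without array 1 the mean margin was 0.0049 (limma adjusted p = 0.985), so without it Cd48 lay at the limit and the call was lost. Without array 3 the mean margin was -1.02, and without array 2 no call was made either (limma adjusted p = 0.13).

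Cd244, the receptor for CD48 known from natural killer cells as 2B4, was almost level between arrays. It had intensities of 54.2, 54.8 and 56.2 and log2 levels of 5.76, 5.78 and 5.81 on arrays 1, 2 and 3. Because the limit differed between arrays while Cd244 did not, its margins were -0.53, -0.20 and 0.05. The mean margin of -0.23 ± 0.22 (SE, n = 3) did not pass (limma adjusted p = 0.35). Against the 99th percentile it passed as lower (limma adjusted p = 0.000914).

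Ly9, or CD229, is a self-binding receptor of lymphocytes. On arrays 1, 2 and 3 it had intensities of 93.4, 103.8 and 110.2, at log2 levels of 6.55, 6.70 and 6.78. All exceeded their limits, by 0.25, 0.72 and 1.02, and the mean margin of 0.66 ± 0.26 (SE, n = 3) passed the limma test (adjusted p = 0.0155). Leaving out array 2 or array 3 ended that call, with limma adjusted p of 0.221 and 0.135. Against the 99th percentile Ly9 was above on 2 arrays, at a mean margin of -0.06 that did not pass (limma adjusted p = 0.865).

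Cd84, a self-binding receptor found on platelets and many leukocytes, had the widest margin of the family. Its intensity was 120.2, 174.0 and 253.7 on arrays 1, 2 and 3, with log2 levels of 6.91, 7.44 and 7.99. The arrays differed by 2.11-fold between the lowest and the highest, and each was above its limit, by 0.61, 1.47 and 2.22 log2. Only 21, 3 and 1 of the 1231 receptor genes were as bright or brighter. The mean margin of 1.43 ± 0.32 (SE, n = 3) passed the limma test with the limit of each array (adjusted p = 1.58e-05) and with 1 mean limit (adjusted p = 0.00162). Against the 99th percentile it was 0.71 and did not pass (limma adjusted p = 0.077).

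Slamf6 and Slamf7, self-binding receptors of T and B cells and of natural killer and plasma cells, lay furthest below the limit. Slamf6, known as Ly108 in mice, had intensities of 23.5, 23.3 and 22.8 and log2 levels of 4.55, 4.54 and 4.51 on arrays 1, 2 and 3. The arrays were nearly identical, and the mean margin was -1.48 ± 0.21 (SE, n = 3, limma adjusted p = 7.58e-12, and 4.89e-05 with 1 mean limit). Slamf7 had intensities of 20.9, 19.6 and 17.1 and log2 levels of 4.39, 4.29 and 4.10, with a mean margin of -1.75 ± 0.21 (SE, n = 3, limma adjusted p = 2.92e-16, and 3.73e-05 with 1 mean limit). On each array at least 593 of the receptor genes were as bright as Slamf7 or brighter, close to the middle of that distribution.

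Slamf8 and Slamf9, which are known from macrophages and dendritic cells and whose short tails lack the tyrosine motifs that bind SAP, lay below the limit by less. Slamf8 had intensities of 40.7, 58.4 and 47.3 and log2 levels of 5.35, 5.87 and 5.56 on arrays 1, 2 and 3. Its highest value, on array 2, came close to the limit, with a margin of -0.11. The mean margin of -0.42 ± 0.22 (SE, n = 3) did not pass with the limit of each array (limma adjusted p = 0.0711) and passed as lower with 1 mean limit (limma adjusted p = 0.0249) and against the 99th percentile (limma adjusted p = 4.82e-05). Slamf9 had intensities of 49.2, 43.6 and 45.3 and log2 levels of 5.62, 5.45 and 5.50. Its 3 arrays lay close together, with a mean margin of -0.49 ± 0.21 (SE, n = 3, limma adjusted p = 0.0335), and the call was lost in the limma fit without any one array (adjusted p of 0.0569 to 0.302).

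The members differed in how far their arrays lay apart. The SD over the 3 arrays was 0.77 log2 for Cd48 and 0.54 for Cd84, then 0.26 for Slamf8, 0.15 for Slamf7, 0.13 for Slamf1, 0.12 for Ly9, 0.09 for Slamf9, 0.03 for Cd244 and 0.02 for Slamf6. The median SD was 0.13 over the family and 0.22 over all genes. The SD of Cd48 was 3.65 times that of the trend for genes of its level, and 96.8% of all genes had an SD as small or smaller. Cd84, at 1.61 times its trend, was at 90.3%, while Slamf6 and Cd244, at 0.73% and 1.14%, had smaller SDs than nearly all genes. Slamf6 lay below the limit on all arrays, and Cd244 and Cd48 on 2 arrays, so these SDs are not read as the steadiness or the change of a transcript. The part of probe signal at background in them was not tested.

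**Figure D3:**
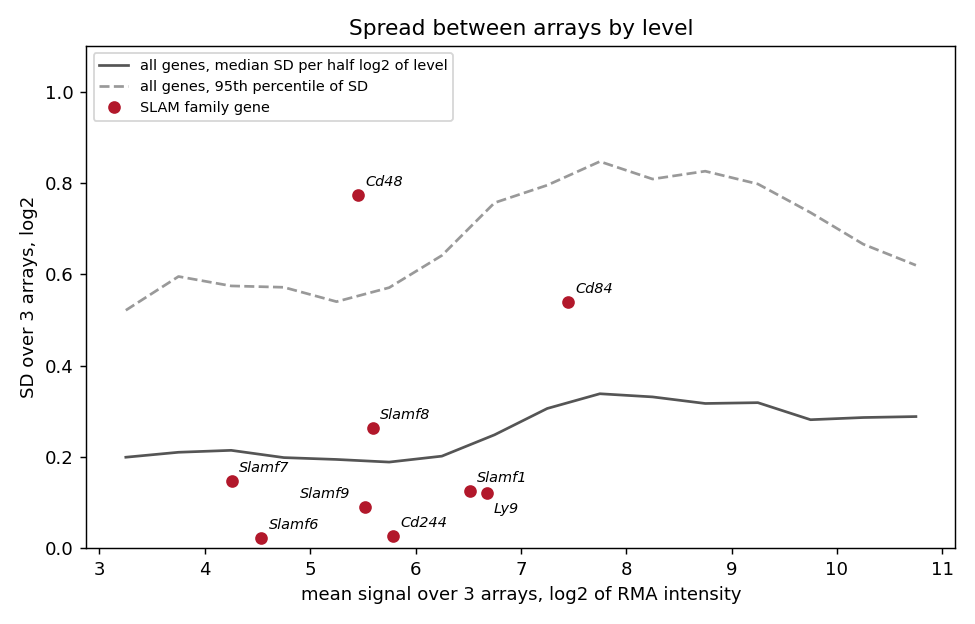
SD over the 3 arrays against mean log2 signal for the 9 SLAM family genes (red), with the median (solid line) and the 95th percentile (dashed line) of all genes by level. Cd48, with an SD of 0.77, lies above the dashed line and Cd84, with 0.54, lies below it.

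None of the members, and none of the 19938 genes, passed the test for variation between arrays, a share of 0% (limma variance trend, one-sided F test, 0 calls at an adjusted p under 0.05). At an unadjusted p under 0.05 there were 1017 genes, or 5.1% of all, and Cd48 was the 1 member among them, at a limma adjusted p of 0.909. The test has 2 degrees of freedom a gene, and a miss does not show that the arrays held the same amount of Cd48 RNA. Of genes simulated with an SD of 10 times the trend it called 25%, so it could hardly detect a spread like that of Cd48.

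Cd48 and Cd84 were the 2 members whose lowest and highest arrays differed by over 1 log2, as did 10.5% of all genes. In both, array 1 was the lowest and array 3 the highest, and Slamf1, Ly9 and Cd244 had the same order. That order held for 5 of the 9 members and for 15.1% of all genes. Genes with mean levels of 7 to 8 log2, which include Cd84, deviated from their own mean by a median of -0.06, -0.04 and 0.10 on arrays 1, 2 and 3. At mean levels of 5 to 6 log2, which include Cd48, the medians were 0.01, 0.04 and -0.05. Cd48 itself lay below that range on array 1 and above it on array 3. The part of array-wide shifts in these orders was not tested.

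The genes whose deviations over the 3 arrays lay nearest to those of Cd48 were Rmi1, Ttc32 and Mrps28, at Euclidean distances of 0.035, 0.039 and 0.070 log2, and 14 genes lay within 0.1. For Slamf1 the nearest were Ubald1, Guca1a and Manea, at 0.0020, 0.0029 and 0.0029, and 844 genes lay within 0.1. With 3 arrays such likeness is a description of these arrays.

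CD48 is carried by most mature blood cells and many progenitors, so markers of these cells are set beside Cd48 and Cd84. The granulocyte list had 9 of 12 genes above the limit on all arrays and mean log2 levels of 7.93, 8.65 and 8.47 on arrays 1, 2 and 3, and its summed intensity was 9362, 15769.7 and 14522. Its level was lowest on array 1 and highest on array 2. The B cell list, with 1 of 10 above the limit, namely Cd79b, had summed intensities of 526, 584 and 992. Vpreb1, which was below the limit on array 1, made up most of the difference, with log2 levels of 5.81, 6.38 and 9.02. Cd79b, Ebf1 and Igll1 were also higher on array 3 than on array 1, and Cd79a, Pax5, Ms4a1, Cd22, Blk and Vpreb3 were lower. The T and NK cell list, with 1 of 12 above, had sums of 517, 481 and 572, with Nkg7 above the limit on all arrays and higher by limma (adjusted p = 0.0266, and 0.0802 with 1 mean limit), Cd3e above it on 2 arrays, Thy1 on 1 array and the other 9 below it on every array.

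Among markers of monocytes, macrophages and dendritic cells 5 of 12 were above the limit, with summed intensities of 1441, 2181 and 1636, highest on array 2. Most of that difference was in the lysozyme gene Lyz2, with intensities of 534, 1228 and 730. Lyz2, Cd68, Flt3, H2-Ab1 and Cx3cr1 were above the limit on all arrays and higher by limma, and Csf1r, Adgre1, C1qa, C1qb and Itgax were below it on every array. Flt3, and Thy1 of the T and NK cell list, are also counted among the stem and progenitor surface genes below. The megakaryocyte and platelet list had 5 of 7 above the limit on all arrays and sums of 605, 582 and 777. Of its genes 1, Pf4, was higher by limma and 6 did not pass, while 4 were higher with 1 mean limit. Pf4, Ppbp, Gp9 and Gp5 were higher on array 3 than on array 1, and Itgb3, Vwf and the sort gene Itga2b were lower. The erythroid list had 2 of 7 above the limit and sums of 477, 610 and 675, and the mast cell and basophil list 0 of 8 and sums of 284, 390 and 378. The sums of 5 lists, granulocyte, monocyte, B cell, erythroid and mast cell, were lowest on array 1, as Cd48 and Cd84 were. Those of the B cell, T and NK cell, megakaryocyte and erythroid lists were highest on array 3, as Cd48 and Cd84 were, and those of the other 3 lists on array 2, as Slamf8 was. A sum of intensities can follow a single gene, as with Vpreb1 and Lyz2. In the erythroid list, Car1 had intensities of 42.6, 137.2 and 194.1 on arrays 1, 2 and 3, and Alas2 fell from 111.0 to 71.1 and 54.2. Klf1, Epor, Slc4a1, Tfrc and Ermap were, like Car1, higher on array 3 than on array 1. In the T and NK cell list, Nkg7 had intensities of 86.9, 63.6 and 169.1 on arrays 1, 2 and 3. The order of a sum therefore need not hold for the other genes of its list. The part of these cells in the values of Cd48, Cd84 and Slamf8 was not tested. In bulk samples, fewer cells of a type and less RNA per cell cannot be told apart.

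Of the other genes of the sort, Kit was far above the limit and Itga2b, which encodes the excluded CD41, was close to it. Kit, the receptor of stem cell factor, had log2 levels of 10.28, 9.92 and 9.85 on arrays 1, 2 and 3 and a mean margin of 4.0 ± 0.36 (SE, n = 3, limma adjusted p = 1.1e-27). Itga2b was at 6.51, 6.36 and 6.24, above the limit on all arrays like Slamf1, with a mean margin of 0.36 ± 0.24 (SE, n = 3) that did not pass with the limit of each array (limma adjusted p = 0.165) and passed with 1 mean limit (adjusted p = 0.0335). The selected marker Slamf1 and the excluded marker Itga2b were thus at similar margins, although margins of different probe sets do not measure amounts. Sca-1, encoded by Ly6a, was not analysed here.

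Other surface genes of stem cells and progenitors were mostly above the limit, 9 of 10 on all arrays, and 7 were higher by the limma test. Procr, the endothelial protein C receptor, averaged 7.39 ± 0.38 log2, Eng, or endoglin, 7.26 ± 0.04, and the integrin gene Itga6 8.0 ± 0.62 (SD, n = 3 each). The adhesion gene Esam at 6.17 ± 0.19 and the angiopoietin receptor gene Tek at 6.37 ± 0.08 were above the limit on all arrays without passing the test. With 1 mean limit Tek passed (limma adjusted p = 0.0306), as Slamf1 did, and Esam did not (limma adjusted p = 0.284). Thy1 at 5.93 ± 0.18 was above it on array 2 alone.

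The 3 adaptors of the SAP family, which bind SLAM tails, were all below the limit on every array, and all 3 were lower by the limma test. Sh2d1a, which encodes SAP, had log2 levels of 4.73, 4.82 and 4.47 on arrays 1, 2 and 3 and a mean margin of -1.34 ± 0.21 (SE, n = 3, limma adjusted p = 6.74e-10, and 0.000117 with 1 mean limit). Sh2d1b1, which encodes EAT-2, was at 3.87, 4.13 and 4.57, with a margin of -1.82 ± 0.21 (limma adjusted p = 1.95e-17, and 9.5e-05 with 1 mean limit). Its mouse relative Sh2d1b2 was at 2.95, 3.05 and 3.06, with a margin of -2.99 ± 0.21 (limma adjusted p = 3.29e-43, and 9.98e-06 with 1 mean limit). A level below the limit does not show that a transcript was absent.

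Of the enzymes and adaptors known to bind or act on SLAM tails, 6 of the 10 measured were above the limit on all arrays, and 6 were higher and 1 lower by the limma test. Fyn, the Src family kinase that SAP recruits, had log2 levels of 7.14, 7.29 and 7.54 on arrays 1, 2 and 3 and a mean margin of 1.31 ± 0.31 (SE, n = 3, limma adjusted p = 5.06e-05). Ptpn6, the gene of the phosphatase SHP-1, was at 8.95, 8.54 and 8.32, with a margin of 2.59 ± 0.36, and Inpp5d, that of the lipid phosphatase SHIP-1, at 8.05, 7.36 and 7.40, with 1.59 ± 0.33. The SHP-2 gene Ptpn11, the inhibitory kinase gene Csk and the adaptor gene Sh3bp2, whose product binds CD244 in human cells, were also higher, at margins of 1.19 ± 0.30, 0.78 ± 0.27 and 0.91 ± 0.28. The 6 higher genes passed with either limit, at limma adjusted p of at most 0.00549 with the limit of each array. Of the other Src family kinase genes, Src at 6.21 ± 0.07 and Yes1 at 6.06 ± 0.27 log2 (SD, n = 3) did not pass, Fgr at 5.66 ± 0.12 passed as lower with 1 mean limit alone (limma adjusted p = 0.0221), and Blk at 5.35 ± 0.35 was lower (limma adjusted p = 0.00332).

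**Figure D4:**
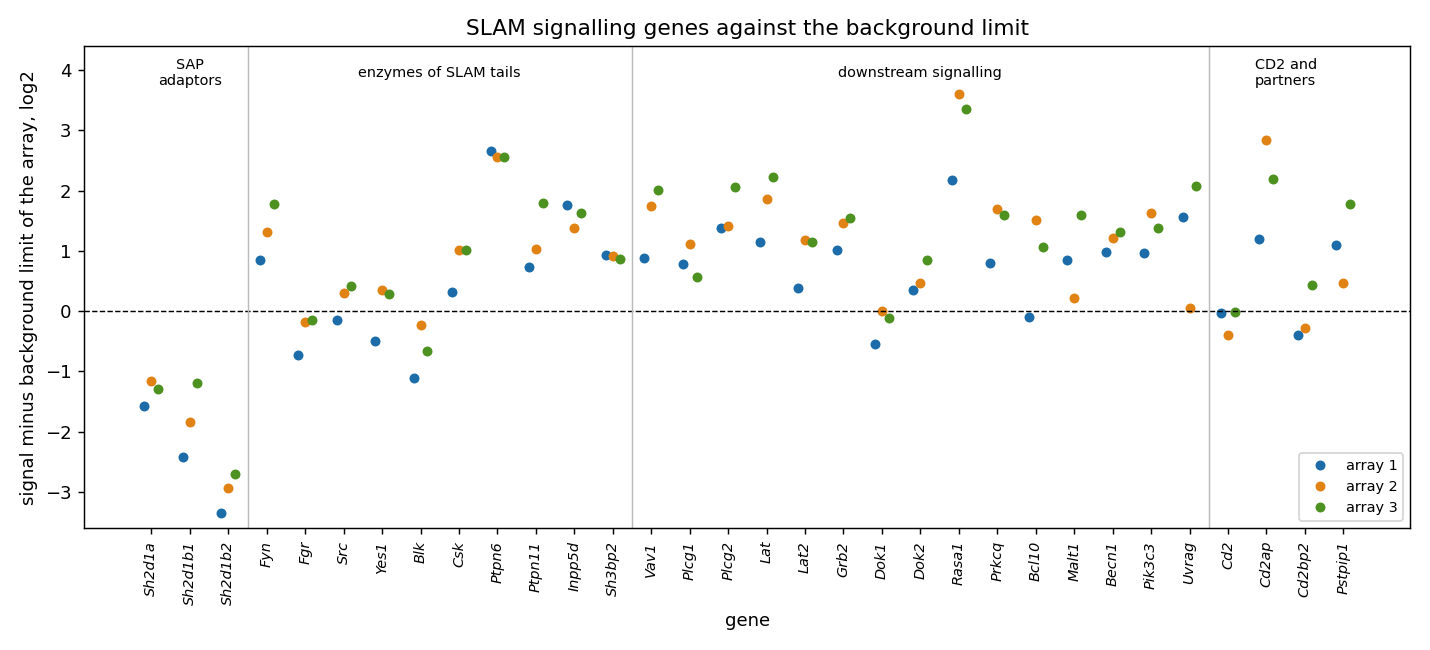
Signal minus the background limit of the array, in log2, for measured genes of SLAM signalling on arrays 1, 2 and 3 (points, 1 array each), in 4 lists. The 3 SAP family adaptors lie below 0 on every array, while 6 of 10 enzymes of SLAM tails and 13 of 15 downstream genes lie above it on all arrays.

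Downstream signalling genes had 13 of 15 above the limit on all arrays, and 14 were higher by the limma test. The exchange factor gene Vav1 averaged 7.56 ± 0.34 log2, the phospholipase genes Plcg1 and Plcg2 6.83 ± 0.44 and 7.63 ± 0.22, the scaffold genes Lat and Lat2 7.76 ± 0.29 and 6.92 ± 0.24, and the adaptor gene Grb2 7.36 ± 0.07 (SD, n = 3 each). All 6 were higher than the limit, at limma adjusted p of at most 0.00397. These proteins also serve many other receptors. Cd2, which encodes the other mouse receptor for CD48, was below the limit on every array, at 6.26, 5.59 and 5.76 on arrays 1, 2 and 3, and did not pass (limma adjusted p = 0.566). Of the genes of proteins that bind the CD2 tail, Cd2ap at 8.09 ± 0.67 and Pstpip1 at 7.13 ± 0.60 were higher (limma adjusted p = 7.36e-09 and 0.000303), and Cd2bp2 at 5.93 ± 0.25 did not pass.

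SLAM genes on either side of the limit stood next to each other on the chromosome. In the first run Slamf7, below the limit on every array, stood between Ly9, above it on every array, and Cd48, above it on array 3 alone. Cd84, with the widest margin, stood next to Slamf6, which was below the limit on every array. Of 17 protein-coding neighbours, counted as those within a run and the nearest 3 on each side, 16 were measured, and 4 were above the limit on all arrays, namely F11r at 7.25 ± 0.41, Pigm at 7.40 ± 0.65, Tagln2 at 7.55 ± 0.35 and Dusp23 at 6.51 ± 0.23 log2 (SD, n = 3 each). A further 6 neighbours were below it on every array, and the gene order was not tested.

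**Figure D5:**
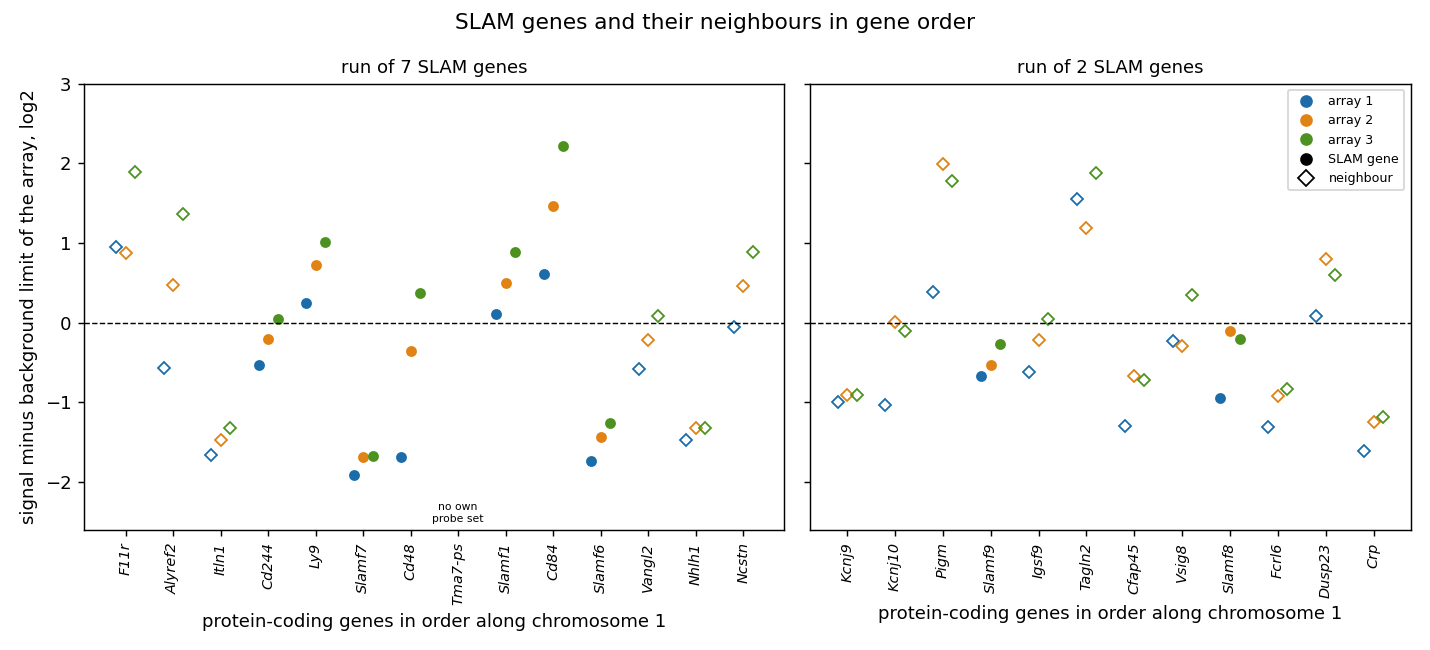
Signal minus the background limit of the array, in log2, for the SLAM genes (filled circles) and their protein-coding neighbours (open diamonds) in order along chromosome 1, on arrays 1, 2 and 3. Within the run of 7 SLAM genes, Ly9, Slamf1 and Cd84 lie above 0 on all arrays and Slamf7 and Slamf6 below it, and 4 of 16 measured neighbours lie above 0 on all 3 arrays.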

How the data were processed

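Gene expression was measured on 3 arrays of sorted wild-type marrow cells. The deposited values are intensities on a linear scale, which the authors obtained by RMA with Affymetrix Expression Console according to the labels' processing notes, and they ran from 2.82 to 18384. The software version, and which arrays entered the RMA run, are not given in the sources. RMA equalises arrays run together, but some array-wide differences remained in these values. The median of the 1231 receptor genes was 4.39, 4.31 and 4.05 log2 on arrays 1, 2 and 3. Genes with mean levels of 9 to 10 log2 deviated from their own mean by a median of -0.20, 0.01 and 0.19.

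Of 35554 probe sets, 21789 named 1 gene, 1621 several and 12144 were not listed. The log2 values of probe sets of a gene were averaged, giving 19938 genes, 999 of them with over 1 probe set. Symbols were updated through a RefSeq table of GRCm38.p6, in which 21698 probe sets matched. Array number limits the precision.

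Levels were tested against the background limit, and variation against the variance trend, with limma 3.58.1 and statmod 1.5.0 in R 4.3.3. Both tests were run on simulated data. The level test called 97% of genes set 1 log2 above the limit, 100% of those set 1 log2 below and 2.9% of those at it. The variation test called 25% of genes at 10 times the trend SD and 86% at 40 times, so it had little power. Named genes follow a fixed rule: all members, sort genes, adaptors, tail enzymes and CD2 partners, the first 6 of longer lists, neighbours above the limit, and the 3 nearest genes in pattern. Members and lists were chosen with earlier results of these data known. List counts cover the measured genes, and some listed genes are not reported here. Cell type markers named beside the members were picked after their values were seen. Alternatives were the 99th percentile, olfactory receptors alone, the brightest probe set, a second quantile normalisation, a filter on low levels, a trend without robust fitting and leaving out each array.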

Additional observations from a re-analysis of the deposited data

How the results depend on the processing

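The count of 3 members above the limit on all arrays was the same with olfactory receptor genes alone as background, the brightest probe set, a second quantile normalisation, the filter on low levels, 1 mean limit and without any one array. With the 99th percentile as the limit it was 0, with 0 members higher and 6 lower by limma, Cd244 and Slamf8 among the 6 in addition to the 4, and 3474 genes in all were above on every array, against 7345 with the 95th. The margins of Slamf1 and Ly9 then turned to -0.23 and -0.063 log2, because the limit itself was raised. Leaving out 1 array gave 1 to 3 members higher and 2 to 3 lower by limma, beside 2 and 4 with all arrays, and between 7380 and 9343 genes above on all remaining arrays. The shares of all genes called by limma with the 99th percentile or without 1 array are not given here. These limma counts of members are therefore not read as particular to the family. Cd48 changed sign without array 1, with margins from -1.02 (without array 3) to 0.0049 log2 (without array 1). Without array 1, Slamf1 passed as higher (limma adjusted p = 0.0315). No member was called for variation under any alternative run. No paired analysis was possible because all samples belong to 1 group.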
